A study of Mus musculus with 40 samples.

Results

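Long noncoding RNAs and the host genes of small RNAs were examined in mouse aortas during the first day of angiotensin II (Ang-II), a peptide hormone that raises blood pressure, with and without calcineurin (Cn), a calcium-activated phosphatase. The RNAs were chosen by name: gene names that start with Snhg, names that start with Mir and end in hg, names that end in os or -as1, and 14 single names among them Neat1, Malat1, Meg3, H19 and Pvt1. The names matched 97 genes in the deposited tables, and 13 of these were protein-coding genes whose names only end in the same letters, such as Fos and Uros, which were set apart by their GENCODE M21 biotype. This left 84 RNAs of the 17809 genes in either table, 82 of them in the genotype experiment and 57 in the cyclosporin experiment. Norad was listed in neither table. By role they comprised the 3 noncoding RNAs of the Dlk1-Dio3 imprinted region, 4 microRNA host genes, 16 small nucleolar RNA (snoRNA) host genes, 9 other named long noncoding RNAs and 52 opposite-strand RNAs. The name rule itself used no measured value, but it was set with earlier results of these data known. Only RNAs listed in a deposited table could enter.

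The genotype experiment (22 libraries) used male mice with a floxed CnB1 gene (Ppp3r1, the regulatory subunit of Cn), which by their labels lacked Cre (Cn-Ctl) or carried Myh11-CreERT2, a tamoxifen-activated Cre driven by a smooth muscle promoter (SM-Cn-/-). In the study as a whole, Cn-Ctl also took in Cre carriers without the floxed allele. Both genotypes received 1 mg of tamoxifen a day for 5 days and were used 6 weeks later, either with no treatment or once Ang-II had been infused from a minipump (1 µg/kg/min) for 2, 6 or 24 h. The cyclosporin experiment (18 libraries) used C57BL/6J mice, either without a pump (WT) or given cyclosporin A (CsA), an inhibitor of Cn activity, by minipump for 5 days, and then untreated or given the same dose of Ang-II for 2 or 24 h. Each library pooled 3 aortas stripped of adventitia and perivascular tissue, and each group held 3 libraries except untreated Cn-Ctl and Cn-Ctl at 24 h with 2 each. Treated Cn-Ctl, WT and CsA mice had been selected for a systolic pressure above 130 mmHg, whereas treated SM-Cn-/- mice were not selected by pressure, so the selection and the genotype cannot be told apart. Mice in which the deletion, or in CsA the block of NFAT dephosphorylation in the thymus, could not be shown had been left out by the study. The replicates are separate pools. The 2 experiments were normalised separately and were tested only within themselves.

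Many long noncoding RNAs act in the nucleus, as scaffolds (Neat1 builds paraspeckles, Malat1 sits in nuclear speckles) or as regulators of nearby genes (Kcnq1ot1 silences its imprinted neighbours in cis). Other RNAs are known mainly for what lies inside them: snoRNA host genes are spliced, their introns release snoRNAs that guide modification of ribosomal RNA, and their spliced remainders are often removed by nonsense-mediated decay. MicroRNA host genes carry hairpins that Drosha and Dicer cut into mature microRNAs, and the maternally expressed chain of Meg3, Rian and Mirg on mouse chromosome 12 holds both kinds of small RNA. An RNA named for the opposite strand starts beside, or runs against, a protein-coding gene. The libraries were primed with oligo-dT, so that what was measured was host transcript, and mature microRNAs and snoRNAs were not measured.

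The mature microRNAs inside the host genes that moved most are shown to make clear what these RNAs carry. By RefSeq (GRCm38.p6), 11 of the 84 RNAs hold 66 mature microRNA sequences with 63 different seeds. Mirg holds 26 of them, Mir17hg 11, Rian and Mir99ahg 6 each, Meg3 3 and Mir22hg 2. Within annotated exons of the host lie all 2 of Mir22hg, all 11 of Mir17hg and all 3 of Meg3, whereas all 6 of Rian and all 6 of Mir99ahg are intronic and those of Mirg are 16 intronic, 8 exonic and 2 at an exon edge. Only 3 seeds occur in more than 1 of the 66 sequences, and all 3 pairs lie within a single host: miR-17-5p with miR-20a-5p and miR-19a-3p with miR-19b-3p in Mir17hg, and miR-453 with miR-496a-5p in Mirg. The sequences run 5′ to 3′ with the seed (bases 2 to 8) in capitals. The lines give in turn the pair of Mir22hg (chr11:75463734-75463755 and chr11:75463772-75463793), 1 microRNA each of Meg3 (chr12:109563710-109563731) and Rian (chr12:109618305-109618326), 4 of Mirg (from chr12:109734145-109734166 to chr12:109743764-109743784), the 4 of Mir17hg with shared seeds (from chr14:115043684-115043706 to chr14:115044358-115044380) and 3 of Mir99ahg (from chr16:77598940-77598961 to chr16:77646279-77646300), all on the plus strand.
miR-22-5p: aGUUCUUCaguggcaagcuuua
miR-22-3p: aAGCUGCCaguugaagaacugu
miR-770-5p: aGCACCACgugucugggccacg
miR-370-3p: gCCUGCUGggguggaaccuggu
miR-134-5p: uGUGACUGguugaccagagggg
miR-453: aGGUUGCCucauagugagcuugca
miR-496a-5p: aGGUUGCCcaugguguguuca
miR-410-3p: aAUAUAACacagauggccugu
miR-17-5p: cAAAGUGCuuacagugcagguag
miR-20a-5p: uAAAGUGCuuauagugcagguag
miR-19a-3p: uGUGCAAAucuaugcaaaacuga
miR-19b-3p: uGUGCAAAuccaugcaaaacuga
miR-99a-5p: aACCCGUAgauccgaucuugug
let-7c-5p: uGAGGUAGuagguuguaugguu
miR-125b-5p: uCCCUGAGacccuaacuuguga

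The promoters of Meg3, Gas5 and Snhg15 are shown because they were the only members' promoters with a full cyclic AMP response element, the palindrome TGACGTCA bound by CREB-family factors. RefSeq promoter stretches (250 bases before to 50 after the start, GRCm38.p6) existed for 61 of the 84 RNAs, 72 stretches in all, which is 72.6% of the RNAs and too few for a statement about the whole set. TGACGTCA, which reads the same on both strands, occurred in 3 of these 72 stretches (4.17%) and in 1.8% of all 32544 promoters of the same length. The element starts 57 bases before the start of Meg3 (chr12:109540746-109541045, plus strand), 46 before that of Gas5 (chr1:161034916-161035215, plus strand) and 88 before that of Snhg15 (chr11:6528711-6529010, minus strand). It is in capitals below. In Gas5 the capitals at the start site mark a terminal oligopyrimidine start (C followed by 4 C or T at the annotated start), which was found in 12.5% of the 16 stretches of snoRNA hosts and 2.51% of all promoters. The AP-1 letters TGACTCA or TGAGTCA were in 3 of the 72 stretches (4.17%, against 5.19% of all promoters), and the CArG box of serum response factor in 2 (2.78%, against 1.64%). These letters are a description of the sequence only.
Meg3: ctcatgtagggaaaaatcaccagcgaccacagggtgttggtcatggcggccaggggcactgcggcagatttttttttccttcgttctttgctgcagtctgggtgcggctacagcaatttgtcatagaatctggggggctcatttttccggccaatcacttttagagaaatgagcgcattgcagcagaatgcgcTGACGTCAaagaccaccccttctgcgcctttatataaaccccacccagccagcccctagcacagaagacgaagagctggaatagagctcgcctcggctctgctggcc
Gas5: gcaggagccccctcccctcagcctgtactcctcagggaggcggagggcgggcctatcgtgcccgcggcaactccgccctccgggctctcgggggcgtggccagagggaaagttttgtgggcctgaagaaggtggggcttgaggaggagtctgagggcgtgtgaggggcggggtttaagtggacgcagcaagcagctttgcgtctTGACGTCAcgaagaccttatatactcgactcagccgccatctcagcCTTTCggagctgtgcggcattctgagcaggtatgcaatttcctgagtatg
Snhg15: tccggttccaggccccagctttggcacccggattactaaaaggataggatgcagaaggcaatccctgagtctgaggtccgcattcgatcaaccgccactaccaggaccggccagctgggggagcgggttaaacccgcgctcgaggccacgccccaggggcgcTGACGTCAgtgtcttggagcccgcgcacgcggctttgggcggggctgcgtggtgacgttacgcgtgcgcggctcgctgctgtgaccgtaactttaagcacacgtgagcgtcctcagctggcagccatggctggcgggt

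Depth, in assigned reads, was 2.73 M to 10.25 M a library in the genotype experiment (median 6.52 M) and 18.98 M to 38.9 M in the cyclosporin experiment (median 22.8 M), so that the latter resolves smaller changes. Of the 82 RNAs in the genotype experiment, 40 had 0 reads in at least 1 library and 32 averaged at least 5 on the deposited scale, which is close to CPM, whereas 0 of 57 had 0 reads in a library of the cyclosporin experiment. In the genotype experiment 3 libraries stood apart, with a median correlation to the other libraries of 0.855 to 0.860 against 0.894 or more: Cn-Ctl 6 h replicate 3, Cn-Ctl 24 h replicate 3 and SM-Cn-/- 6 h replicate 3. They had 2.73 M to 3.97 M reads and the highest Malat1 values of the experiment, and results that rest on them are given with and without them. Ppp3r1 was not called different between libraries labelled SM-Cn-/- and Cn-Ctl at any time (untreated log2 difference -0.46 ± 0.36 (SE), adjusted p = 0.993), so this mRNA is no check of the genotype, which was taken from the labels. The study checked recombination by PCR on aortic tissue and CnB protein by immunoblot, and neither was analysed here. Summed smooth muscle markers lay between 15723 and 48464 in every library, where the markers of the labelled tissue were thus present. Fewer cells of a type and less RNA per cell cannot be told apart in these bulk samples.

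Under Ang-II, 37 of the 84 RNAs passed the test (limma, adjusted p under 0.05 over all genes of the table) in at least 1 of the 10 comparisons of a treated with its untreated group, 17 of them only higher, 20 only lower and 0 in both directions. RNAs listed in only 1 table had fewer than 10 comparisons. No such count was made for all genes, of which WT at 24 h alone called 33.0%, so the 37 says nothing particular about these RNAs. For each single comparison the number called and the share of all genes called are set side by side, as a share near the latter says nothing particular either. In Cn-Ctl 5 of 82 were called at 2 h (all genes 5.07%), 4 at 6 h (all genes 3.35%) and 4 at 24 h (all genes 4.66%). In SM-Cn-/- 1 was called at 2 h (all genes 0.977%), 3 at 6 h (all genes 2.02%) and 0 at 24 h (all genes 0.644%), where limma gave 4 at an unadjusted p under 0.05 and edgeR called 0. In WT 12 of 57 were called at 2 h (all genes 20.3%) and 24 at 24 h (all genes 33.0%), and in CsA 13 at 2 h (all genes 18.6%) and 6 at 24 h (all genes 7.90%). The counts for all classes together were thus between 0% and 42.1% of the RNAs listed, and the classes differed in direction. Sums of cell type markers were compared too, where groups of 2 or 3 libraries can lie apart by chance. This happens more readily with 2, as in untreated Cn-Ctl and Cn-Ctl at 24 h, so the counts are a description. Of 9 lists, those whose sums did not overlap between treated and untreated libraries numbered 3 in Cn-Ctl at 2 h, 3 at 6 h and 5 at 24 h, 3, 0 and 3 in SM-Cn-/-, 0 and 3 in WT at 2 h and 24 h, and 3 and 2 in CsA. Mir22hg was called in 8 of the 10 comparisons, Rian in 7, Mirg in 5, Meg3 and Snhg1 in 4 each and Snhg5 in 3.

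**Figure D1:**
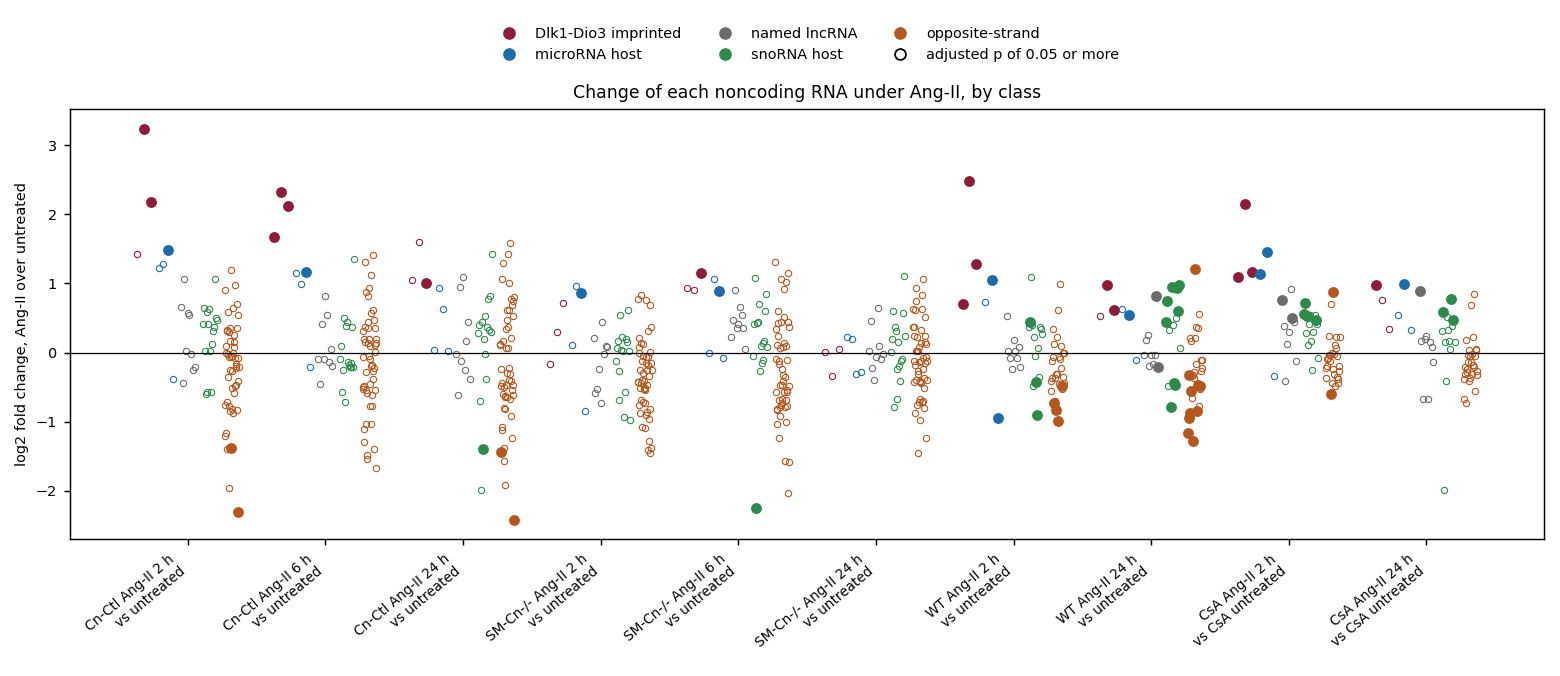
Log2 fold change of each RNA (y axis, Ang-II over untreated) in the 10 comparisons (x axis), with each RNA as a point coloured by class and filled where its adjusted p was under 0.05. Mirg lies at 3.24 in Cn-Ctl, 2.48 in WT and 0.29 in SM-Cn-/- at 2 h, and most of the filled opposite-strand points lie below 0.

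All 3 RNAs of the Dlk1-Dio3 region rose at 2 h in WT and CsA, and Rian and Mirg also in Cn-Ctl. Meg3 (chr12:109541001-109571726 by GENCODE M21 on GRCm38, as for all genes here) lies first on the chain, Rian (chr12:109603940-109661716), which holds C/D-box snoRNAs, starts 62.9 kb further on, and Mirg (chr12:109729764-109749460), a cluster of microRNAs, starts 188.8 kb from the start of Meg3, all on the plus strand. Rian in Cn-Ctl was at 67.9 and 82.6 untreated, 427, 384 and 243 at 2 h, 321, 426 and 258 at 6 h, and 125 and 183 at 24 h. In SM-Cn-/- its values were 57.4, 78.7 and 61.4 untreated, 120.1, 110.0 and 94.0 at 2 h, 148, 143 and 146 at 6 h, and 66.6, 69.9 and 67.1 at 24 h. All 3 Cn-Ctl libraries at 2 h and all 3 at 6 h lay above every untreated library, while at 24 h in SM-Cn-/- the values overlapped the untreated ones. In Cn-Ctl Rian rose 4.53-fold at 2 h (log2 fold change 2.18 ± 0.23 (SE), adjusted p = 1.56e-06), 4.36-fold at 6 h (2.12, adjusted p = 1.02e-05) and 2.01-fold at 24 h (1.01, adjusted p = 0.0223). Its rises at 2 h and 6 h kept their calls in each of the 5 fits that left out 1 library. At 24 h Rian lost its call without replicate 2 or 3 of Cn-Ctl untreated or replicate 3 of Cn-Ctl Ang-II 24h (log2 fold change 0.74 to 1.15, adjusted p = 0.0735 to 0.314). Rian also lost it under omission of the libraries that stand apart (0.74, adjusted p = 0.211). In SM-Cn-/- Rian rose at 6 h (log2 fold change 1.15 ± 0.21 (SE), adjusted p = 0.00403) and was at a log2 fold change of 0.72, adjusted p = 0.119, at 2 h, where its libraries also lay above the untreated ones.

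Mirg in Cn-Ctl was at 3.71 and 9.76 untreated, 128, 82.3 and 22.0 at 2 h, 27.7, 22.2 and 56.0 at 6 h, and 14.9 and 25.5 at 24 h. In SM-Cn-/- it was at 5.30, 10.1 and 7.07 untreated, 8.77, 8.17 and 10.1 at 2 h, 11.95, 15.1 and 15.4 at 6 h, and 3.20, 5.33 and 10.1 at 24 h. Every Cn-Ctl library at 2 h exceeded both untreated ones, and at 2 h all 3 SM-Cn-/- libraries lay below all 3 of Cn-Ctl. Mirg rose 9.44-fold at 2 h in Cn-Ctl (log2 fold change 3.24 ± 0.57 (SE), adjusted p = 0.000708) and 5.03-fold at 6 h (2.33, adjusted p = 0.0218). At 2 h Mirg lost its call without replicate 2 of Cn-Ctl untreated (log2 fold change 2.60, adjusted p = 0.0518). At 6 h it lost its call without replicate 2 of Cn-Ctl untreated or replicate 3 of Cn-Ctl Ang-II 6h (log2 fold change 1.69 to 1.94, adjusted p = 0.104 to 0.352). Mirg also lost it under omission of the libraries that stand apart (1.94, adjusted p = 0.101).

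Meg3, the most abundant of the 3, was in Cn-Ctl at 221 and 286 untreated, 970.0, 762 and 424 at 2 h, 592, 658 and 1307 at 6 h, and 393 and 695 at 24 h. Its values in SM-Cn-/- were 172, 389.8 and 312 untreated, 201, 215 and 344 at 2 h, 332, 596 and 749 at 6 h, and 228, 225 and 412 at 24 h. All treated Cn-Ctl libraries were above the 2 untreated ones, but the spread was wide, and the highest value was that of 6 h replicate 3, a library that stands apart. Meg3 rose at 6 h in Cn-Ctl (log2 fold change 1.67 ± 0.42 (SE), adjusted p = 0.0277) and missed the threshold at 2 h (1.43, adjusted p = 0.0506). At 6 h it lost its call without replicate 2 or 3 of Cn-Ctl untreated or replicate 3 of Cn-Ctl Ang-II 6h (log2 fold change 1.31 to 1.85, adjusted p = 0.126 to 0.268). Meg3 also lost it under quantile normalization (1.46, adjusted p = 0.0672) and omission of the libraries that stand apart (1.31, adjusted p = 0.0915). In the same Cn-Ctl libraries the sum of 6 adventitial fibroblast markers was 840 and 1550 untreated and 1615 to 2540 at 2 h, and that of 6 macrophage markers 78.1 and 112 untreated and 119 to 329 at 2 h, both without overlap, whereas 5 nerve markers went from 37.0 and 39.3 to between 27.98 and 32.4. Their part in the rises of Rian and Mirg was not tested.

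In the cyclosporin experiment the same chain rose in both WT and CsA aortas at 2 h. In WT 0 of the 9 marker lists were without overlap at 2 h. In CsA the sums of 6 macrophage markers (243 to 316 untreated and 137 to 150 at 2 h) and 3 skeletal muscle markers were lower and that of 6 smooth muscle markers higher (15723 to 17748 untreated and 19489 to 25208 at 2 h). Mirg was at 3.61, 3.503 and 3.87 untreated, 30.7, 15.9 and 24.1 at 2 h, and 7.26, 8.36 and 7.60 at 24 h in WT. Mirg was at 3.18, 3.77 and 4.83 untreated, 13.3, 28.7 and 17.4 at 2 h, and 6.79, 7.35 and 6.67 at 24 h in CsA. Rian was at 73.5, 63.5 and 54.1 untreated, 179, 112 and 180.3 at 2 h, and 97.0, 102 and 92.2 at 24 h in WT. Rian was at 56.0, 63.6 and 64.9 untreated, 92.5, 152 and 190.4 at 2 h, and 87.7, 81.6 and 65.9 at 24 h in CsA. No library at 2 h overlapped its untreated group for either RNA. At 2 h Mirg rose 5.59-fold in WT (log2 fold change 2.48 ± 0.24 (SE), adjusted p = 3.54e-06) and 4.42-fold in CsA (2.14, adjusted p = 4.15e-05), and Rian rose 2.42-fold in WT (1.28, adjusted p = 0.000673) and 2.25-fold in CsA (1.17, adjusted p = 0.00204). Each of these 4 calls held in all 6 fits that left out 1 library. At 24 h Mirg was still higher in WT (0.98, adjusted p = 0.00543), as was Rian (0.61, adjusted p = 0.0415), and neither was called in CsA (0.76, adjusted p = 0.0653 for Mirg and 0.34, adjusted p = 0.352 for Rian). At 24 h in WT Rian lost its call without replicate 2 or 3 of WT untreated or replicate 1, 2 or 3 of WT Ang-II 24h (log2 fold change 0.50 to 0.65, adjusted p = 0.0662 to 0.151). Rian also lost it with the replicate number as a block (0.61, adjusted p = 0.061). The values of Meg3 in WT were 199.8, 183 and 158 untreated, 308, 229.8 and 359 at 2 h, and 269.9, 235 and 279 at 24 h. In CsA they were 144, 133 and 200.4 untreated, 234, 351 and 452 at 2 h, and 341, 336 and 258 at 24 h. The untreated and 2 h libraries did not overlap in either group. Meg3 rose at 2 h in WT (log2 fold change 0.71 ± 0.22 (SE), adjusted p = 0.0298) and in CsA (1.09, adjusted p = 0.00316), and at 24 h in CsA (0.98, adjusted p = 0.0129). Meg3 there lost its call without replicate 1 or 2 of CsA untreated or replicate 1 or 2 of CsA Ang-II 24h (log2 fold change 0.86 to 0.92, adjusted p = 0.0559 to 0.0592). At 2 h in WT it lost its call without replicate 2 or 3 of WT untreated or replicate 1 or 3 of WT Ang-II 2h (log2 fold change 0.57 to 0.72, adjusted p = 0.0699 to 0.137). Meg3 also lost it under quantile normalization (0.40, adjusted p = 0.216).

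Of the 3 RNAs, Meg3 had the smallest log2 fold change at 2 h and Mirg the largest in Cn-Ctl, WT and CsA, with Meg3 and Rian close to each other in CsA (1.09 and 1.17). In SM-Cn-/- Meg3 was at -0.16, Rian at 0.72 and Mirg at 0.29. Gm37899, a low RNA on the same strand between Rian and Mirg that the name rule does not cover, broke this order, with 0.039, adjusted p = 0.993 in Cn-Ctl, 1.17, adjusted p = 0.023 in WT and 1.07, adjusted p = 0.0395 in CsA. As a share of Meg3 in the same library, Mirg was 1.81% to 2.44% in untreated WT and 6.70% to 9.96% at 2 h, and in CsA 2.21% to 2.84% untreated and 3.86% to 8.17% at 2 h. In Cn-Ctl the share was 1.68% and 3.41% untreated and 5.18% to 13.2% at 2 h. It did not overlap between untreated and 2 h in any of these 3 groups, and by 24 h it was 2.69% to 3.56% in WT and 1.99% to 2.59% in CsA. In SM-Cn-/- the share of Mirg overlapped (2.27% to 3.08% untreated and 2.93% to 4.36% at 2 h). Rian as a share of Meg3 went from 28.8% and 30.8% untreated to between 44.0% and 57.3% at 2 h in Cn-Ctl and from 34.1% to 36.8% to between 49.0% and 58.1% in WT, but overlapped in CsA (32.4% to 47.9% untreated and 39.6% to 43.1% at 2 h). In SM-Cn-/- the share of Rian overlapped too (19.7% to 33.4% untreated and 27.3% to 59.7% at 2 h). Its medians there were 20.2% untreated and 51.2% at 2 h. These shares are a description, with no test, and each compares the same 2 RNAs between libraries, not their levels with each other. B830012L14Rik, an unnamed noncoding RNA between Rian and Mirg that the name rule does not cover, also rose at 2 h in Cn-Ctl (3.30, adjusted p = 0.0226), WT (1.71, adjusted p = 0.000843) and CsA (1.41, adjusted p = 0.00511). Of the protein-coding genes of the region, Dlk1 was listed in the cyclosporin experiment only, at a mean of 1.01, and was not called at 2 h in WT (log2 fold change 0.65, adjusted p = 0.285). Dio3 and Rtl1 were listed in neither table.

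**Figure D2:**
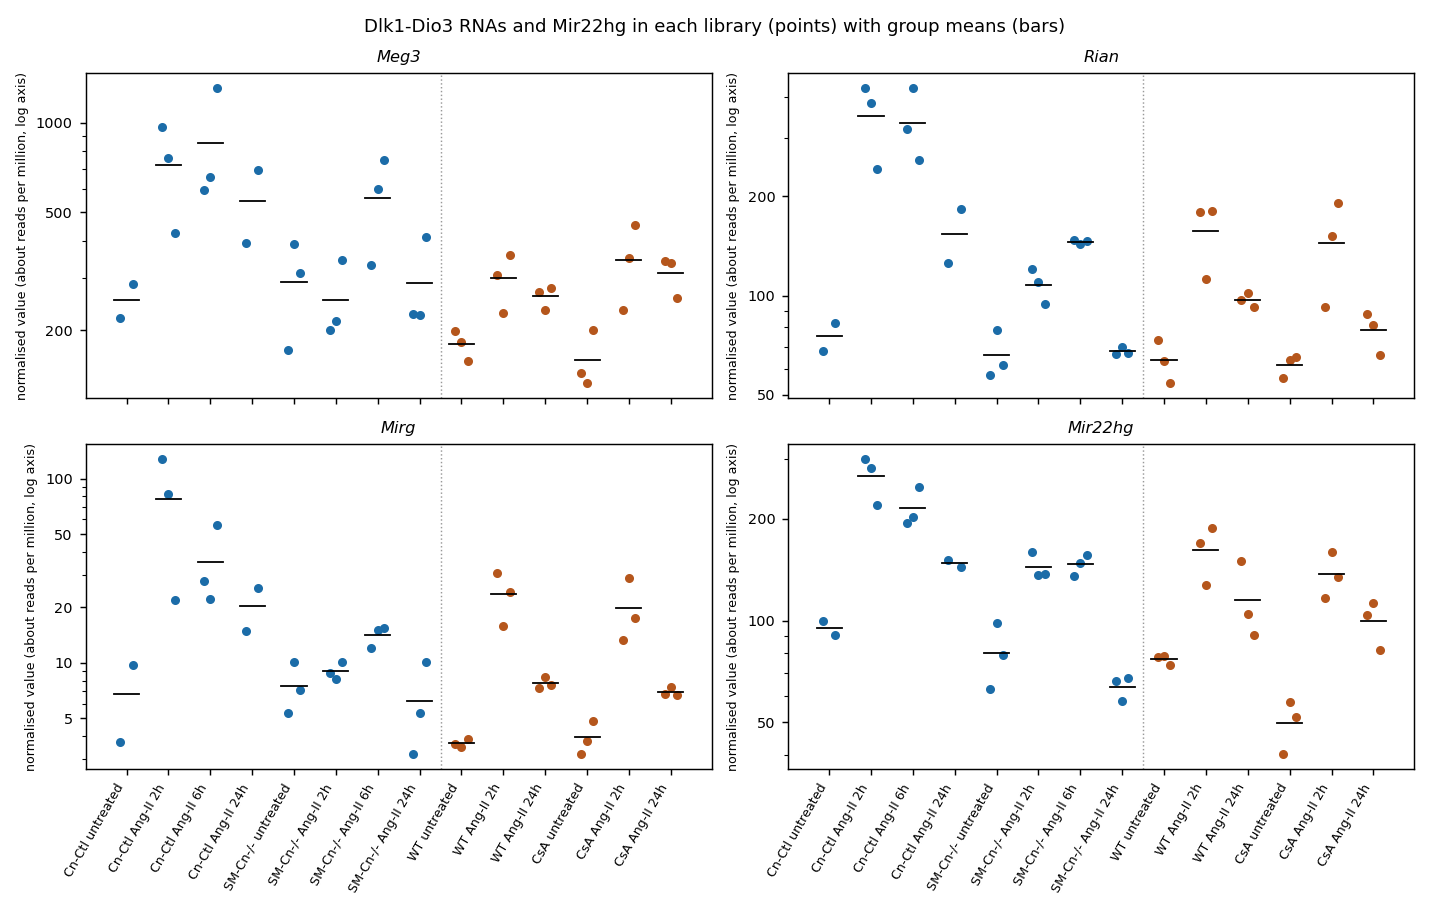
Deposited normalised value (y axis, log scale, close to CPM) of Meg3, Rian, Mirg and Mir22hg in every library (points) with the mean of each group (bars), genotype experiment left and cyclosporin experiment right of the dotted line. Rian in Cn-Ctl is at 67.9 and 82.6 untreated and at 427, 384 and 243 after 2 h of Ang-II.

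At 2 h of Ang-II 7 of 82 RNAs were called between SM-Cn-/- and Cn-Ctl (all genes 2.98%), 6 lower and 1 higher in SM-Cn-/-. All 3 Dlk1-Dio3 RNAs were among the lower ones: Mirg (log2 difference -2.71 ± 0.51 (SE), adjusted p = 0.00258), Rian (-1.66, adjusted p = 3.03e-05) and Meg3 (-1.46, adjusted p = 0.0331). The groups did not overlap for any of the 3. Mirg and Rian kept their calls in each of the 6 fits that left out 1 library, and Meg3 lost its call without replicate 1 or 2 of Cn-Ctl Ang-II 2h or replicate 1 or 2 of SM-Cn-/- Ang-II 2h (log2 fold change -1.38 to -1.21, adjusted p = 0.141 to 0.234). Meg3 also lost it under quantile normalization (-1.13, adjusted p = 0.179). Mir22hg, Gas5, Snhg1 and, in the other direction, Hoxb3os made up the rest. This number depended on the setting, with 2 called under quantile normalization and 3 to 6 when 1 library was left out (3 without Cn-Ctl 2 h replicate 2 or SM-Cn-/- 2 h replicate 1 or 2, and 4 without Cn-Ctl 2 h replicate 1). At 6 h 1 RNA was called between the genotypes, Rian (log2 difference -1.17 ± 0.21 (SE), adjusted p = 0.00326, all genes 1.55%), and at 24 h there were 4 (all genes 4.09%, with 10 without Cn-Ctl 24 h replicate 2 and 1 without Cn-Ctl 24 h replicate 3), of which Rian (log2 difference -1.15 ± 0.23 (SE), adjusted p = 0.00489) lost its call without replicate 3 of Cn-Ctl Ang-II 24h (log2 fold change -0.88, adjusted p = 0.174). Rian also lost it under omission of the libraries that stand apart (-0.88, adjusted p = 0.107). In untreated aortas 0 of 82 were called (all genes 0.0115%), with 4 at an unadjusted p under 0.05 and 0 called by edgeR, and Rian was at a log2 difference of -0.20, adjusted p = 0.993.

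The difference between the genotypes in the response to 2 h of Ang-II was tested by an interaction term, which called 1 of the 82 RNAs (all genes 0.431%). This was Rian, whose response in SM-Cn-/- minus that in Cn-Ctl was -1.46 ± 0.31 (SE) on the log2 scale (adjusted p = 0.0294). It lost its call without replicate 2 or 3 of Cn-Ctl untreated, replicate 1 or 2 of Cn-Ctl Ang-II 2h, replicate 2 of SM-Cn-/- untreated or replicate 2 or 3 of SM-Cn-/- Ang-II 2h (log2 fold change -1.60 to -1.30, adjusted p = 0.0766 to 0.318). Rian also lost it under quantile normalization (-1.21, adjusted p = 0.141). Mirg had a difference of -2.95, adjusted p = 0.118, and Meg3 of -1.59, adjusted p = 0.412. Markers of other cells differed between the genotypes too: in the 2 h libraries the sum of 6 endothelial markers was 299.5 to 554 in Cn-Ctl and 663 to 867 in SM-Cn-/-, and the sum of 6 smooth muscle markers 26844 to 34902 and 24620 to 30876. At 24 h the endothelial sums were 447 to 468 and 1098 to 1165, and in untreated aortas 323 to 434 and 566 to 736, whereas at 6 h they overlapped. The smooth muscle sums did not overlap in untreated aortas (27772 to 28221 in Cn-Ctl and 20219 to 23659 in SM-Cn-/-). Nor did they at 6 h (31273 to 32986 and 22389 to 28020) or 24 h (26824 to 48464 and 23730 to 26421). Their part in the result was not tested.

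Among the microRNA host genes, Mir22hg (chr11:75461539-75466676, plus strand), the host of miR-22, rose in 8 of the 10 Ang-II comparisons. In Cn-Ctl it was at 99.99 and 90.4 untreated, 301, 283 and 220.4 at 2 h, 195, 202 and 248 at 6 h, and 151 and 144 at 24 h. In SM-Cn-/- its values were 62.9, 98.1 and 79.2 untreated, 160.1, 136 and 137 at 2 h, 135, 149 and 156 at 6 h, and 66.1, 58.0 and 67.5 at 24 h. All libraries at 2 h and 6 h lay above all untreated libraries of the same genotype, and at 24 h the SM-Cn-/- libraries overlapped the untreated ones and both of Cn-Ctl lay above theirs, though without passing the test (0.63, adjusted p = 0.08). In Cn-Ctl it rose 2.78-fold at 2 h (log2 fold change 1.48 ± 0.19 (SE), adjusted p = 1.33e-05) and 2.24-fold at 6 h (1.163, adjusted p = 0.000516). The rise in SM-Cn-/- was 1.82-fold at 2 h (0.87, adjusted p = 0.00917) and 1.85-fold at 6 h (0.89, adjusted p = 0.00518). At 2 h in SM-Cn-/- it lost its call without replicate 1 of SM-Cn-/- Ang-II 2h (log2 fold change 0.79, adjusted p = 0.0801), and the other 3 calls held in every such fit. Between the genotypes Mir22hg was lower in SM-Cn-/- at 2 h (log2 difference -0.88 ± 0.17 (SE), adjusted p = 0.00268) and at 24 h (-1.21, adjusted p = 0.00061). It kept both calls whichever library was left out, but at 2 h it lost its call under quantile normalization (log2 difference -0.63, adjusted p = 0.0526).

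In WT, Mir22hg was at 77.9, 78.9 and 73.9 untreated, 169, 127 and 188 at 2 h, and 149.9, 105 and 91.0 at 24 h. Mir22hg in CsA was at 40.3, 57.4 and 52.1 untreated, 117, 160.0 and 134 at 2 h, and 104, 113 and 81.8 at 24 h. Treated and untreated libraries did not overlap at either time. It rose 2.07-fold in WT (log2 fold change 1.05 ± 0.19 (SE), adjusted p = 0.00103) and 2.73-fold in CsA (1.45, adjusted p = 0.000143) at 2 h, and at 24 h in WT (0.55, adjusted p = 0.0362) and CsA (0.99, adjusted p = 0.00608). At 24 h in WT it lost its call without replicate 1, 2 or 3 of WT untreated or replicate 1 or 2 of WT Ang-II 24h (log2 fold change 0.34 to 0.60, adjusted p = 0.0601 to 0.186), and the other 3 calls held in every such fit. The call at 24 h in WT was also lost with the replicate number as a block (0.55, adjusted p = 0.0513). Untreated CsA aortas had less of it than untreated WT (log2 difference -0.63 ± 0.19 (SE), adjusted p = 0.0261), and this comparison lost its call without replicate 1, 2 or 3 of WT untreated or replicate 1 or 3 of CsA untreated (log2 fold change -0.67 to -0.49, adjusted p = 0.054 to 0.113). Its nearest protein-coding start is that of Tlcd2, 176 bases away on the same strand and overlapping it, so that some reads could be shared. Tlcd2 was not called at 2 h in WT (0.15, adjusted p = 0.569) or CsA (0.14, adjusted p = 0.555).

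The other microRNA hosts were less abundant. Mir17hg (chr14:115042879-115046727), which holds the miR-17 to miR-92a cluster known for its tie to cell proliferation, was in WT at 3.92, 4.51 and 2.62 untreated, 5.93, 3.92 and 10.5 at 2 h, and 7.05, 7.34 and 3.86 at 24 h. Mir17hg in CsA was at 3.36, 3.20 and 3.79 untreated, 8.51, 8.35 and 7.69 at 2 h, and 5.60, 5.23 and 5.00 at 24 h. It rose 2.20-fold in CsA at 2 h (log2 fold change 1.14 ± 0.28 (SE), adjusted p = 0.0111), with no overlap with the untreated libraries and the call kept in all 6 fits that left out 1 library. In WT the groups overlapped (0.73, adjusted p = 0.0823). In Cn-Ctl it was at 5.61 and 5.202 untreated, 17.6, 14.3 and 10.5 at 2 h, 11.5, 11.6 and 10.5 at 6 h, and 9.51 and 12.3 at 24 h (1.28, adjusted p = 0.146 at 2 h), where treated and untreated libraries did not overlap but the test was not passed. Mir99ahg (chr16:77236317-77773427), the host of miR-99a, let-7c and miR-125b, went the other way in WT, at 16.7, 17.4 and 17.6 untreated, 7.31, 8.53 and 10.6 at 2 h, and 17.7, 12.4 and 18.8 at 24 h. It fell 1.92-fold at 2 h (log2 fold change -0.94 ± 0.16 (SE), adjusted p = 0.000559), without overlap, and kept the call in all 6 such fits. Its CsA values were 13.2, 17.1 and 17.8 untreated, 12.9, 12.3 and 12.02 at 2 h, and 18.2, 21.7 and 20.2 at 24 h, and it was not called at 2 h (-0.35, adjusted p = 0.139). Mir155hg, the host of a microRNA of immune cells, was listed only in the genotype experiment and was called in 0 of the comparisons there.

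Of the 14 snoRNA host genes listed in the cyclosporin experiment, 9 (64.3%) were called at 24 h in WT, against 33.0% of all genes. These were 6 higher and 3 lower, the median log2 fold change of the 14 was 0.42 and that of all genes -0.012. At 2 h in WT 3 were called (21.4%, near the 20.3% of all genes), 1 higher and 2 lower (median 0.24). Whether 24 h differed from 2 h was not tested. In CsA 4 were higher at 2 h (28.6%, all genes 18.6%) and 3 at 24 h (21.4%, all genes 7.90%), and 0 lower (medians 0.41 and 0.32, all genes -0.024 and -0.021). In the genotype experiment 0 of 16 were called at 2 h in Cn-Ctl (all genes 5.07%, with 2 at an unadjusted p under 0.05 by limma and 0 called by edgeR), with 13 of the 16 above 0 and a median of 0.39 against 0.0073 for all genes. In the WT libraries at 24 h the sums of 6 macrophage markers (92.6 to 135 untreated and 242 to 356 at 24 h), 6 adipose markers (357 to 686 and 812 to 882) and 6 endothelial markers (368 to 625 and 644 to 761) were higher without overlap, and their part in these changes was not tested.

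Snhg1 (chr19:8723475-8726443), which holds 8 snoRNAs, was in WT at 17.8, 15.9 and 16.6 untreated, 20.9, 20.97 and 27.3 at 2 h, and 32.8, 30.7 and 22.5 at 24 h. Snhg1 in CsA was at 11.3, 15.8 and 15.1 untreated, 22.0, 23.4 and 24.5 at 2 h, and 19.9, 21.7 and 21.8 at 24 h. No treated library overlapped the untreated ones of its group. It rose at 2 h and 24 h in WT (log2 fold change 0.44 ± 0.15 (SE), adjusted p = 0.0444, and 0.74, adjusted p = 0.00113 at 24 h) and in CsA (0.72, adjusted p = 0.00358 at 2 h and 0.58, adjusted p = 0.0243 at 24 h). At 2 h in WT it lost its call without replicate 1, 2 or 3 of WT untreated or replicate 1 or 3 of WT Ang-II 2h (log2 fold change 0.31 to 0.50, adjusted p = 0.0564 to 0.206). Snhg1 also lost it with the replicate number as a block (0.44, adjusted p = 0.063). At 24 h in CsA it lost its call without replicate 1 of CsA untreated or replicate 1 or 2 of CsA Ang-II 24h (log2 fold change 0.44 to 0.62, adjusted p = 0.0567 to 0.116). Its nearest coding start, on the opposite strand 106 bases away, belongs to Slc3a2, an amino acid transporter subunit, which also rose in WT at 2 h (0.91, adjusted p = 1.62e-05) and 24 h (0.90, adjusted p = 1.21e-05).

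Gas5 (chr1:161034422-161038539), the host of snoRNAs at 9 places and known for accumulating in growth-arrested cells, had in WT 68.8, 73.1 and 62.4 untreated, 81.9, 79.7 and 105 at 2 h, and 93.9, 102 and 82.7 at 24 h. Gas5 in CsA was at 48.0, 65.3 and 55.5 untreated, 72.9, 88.6 and 86.6 at 2 h, and 61.6, 73.4 and 74.8 at 24 h. The 2 h and untreated libraries did not overlap in either group. Gas5 rose in CsA at 2 h (log2 fold change 0.56 ± 0.13 (SE), adjusted p = 0.00901), a call kept in all 6 fits that left out 1 library, and in WT at 24 h (0.44, adjusted p = 0.018). Gas5 there lost its call without replicate 3 of WT untreated or replicate 2 of WT Ang-II 24h (log2 fold change 0.37 to 0.38, adjusted p = 0.0741 to 0.0843). In Cn-Ctl it was at 147 and 174 untreated, 237, 245 and 169 at 2 h, 133, 123 and 206 at 6 h, and 148 and 255.4 at 24 h. In SM-Cn-/- it was at 128, 146 and 117 untreated, 119, 118 and 121 at 2 h, 99.0, 158 and 126 at 6 h, and 126, 126 and 139 at 24 h. At 2 h every Cn-Ctl library was above every SM-Cn-/- library. Gas5 was lower in SM-Cn-/- at 2 h (log2 difference -0.84 ± 0.22 (SE), adjusted p = 0.0319). Gas5 lost its call without replicate 1 or 2 of Cn-Ctl Ang-II 2h or replicate 1, 2 or 3 of SM-Cn-/- Ang-II 2h (log2 fold change -0.85 to -0.75, adjusted p = 0.0653 to 0.171). Gas5 also lost it under quantile normalization (-0.62, adjusted p = 0.204).

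Snhg1 in Cn-Ctl was at 32.8 and 35.7 untreated, 44.0, 67.5 and 52.6 at 2 h, 29.7, 37.5 and 43.4 at 6 h, and 38.9 and 52.7 at 24 h. Snhg1 in SM-Cn-/- was at 19.5, 30.2 and 31.8 untreated, 23.3, 29.8 and 30.9 at 2 h, 26.1, 42.5 and 40.4 at 6 h, and 27.8, 31.0 and 33.1 at 24 h. The groups at 2 h did not overlap. Snhg1 was lower in SM-Cn-/- at 2 h (log2 difference -0.94 ± 0.24 (SE), adjusted p = 0.0275). Snhg1 lost its call without replicate 2 or 3 of Cn-Ctl Ang-II 2h or replicate 1 or 2 of SM-Cn-/- Ang-II 2h (log2 fold change -0.99 to -0.78, adjusted p = 0.053 to 0.184). Snhg1 also lost it under quantile normalization (-0.81, adjusted p = 0.1). It was not called under Ang-II within either genotype (0.65, adjusted p = 0.197 at 2 h in Cn-Ctl).

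**Figure D3:**
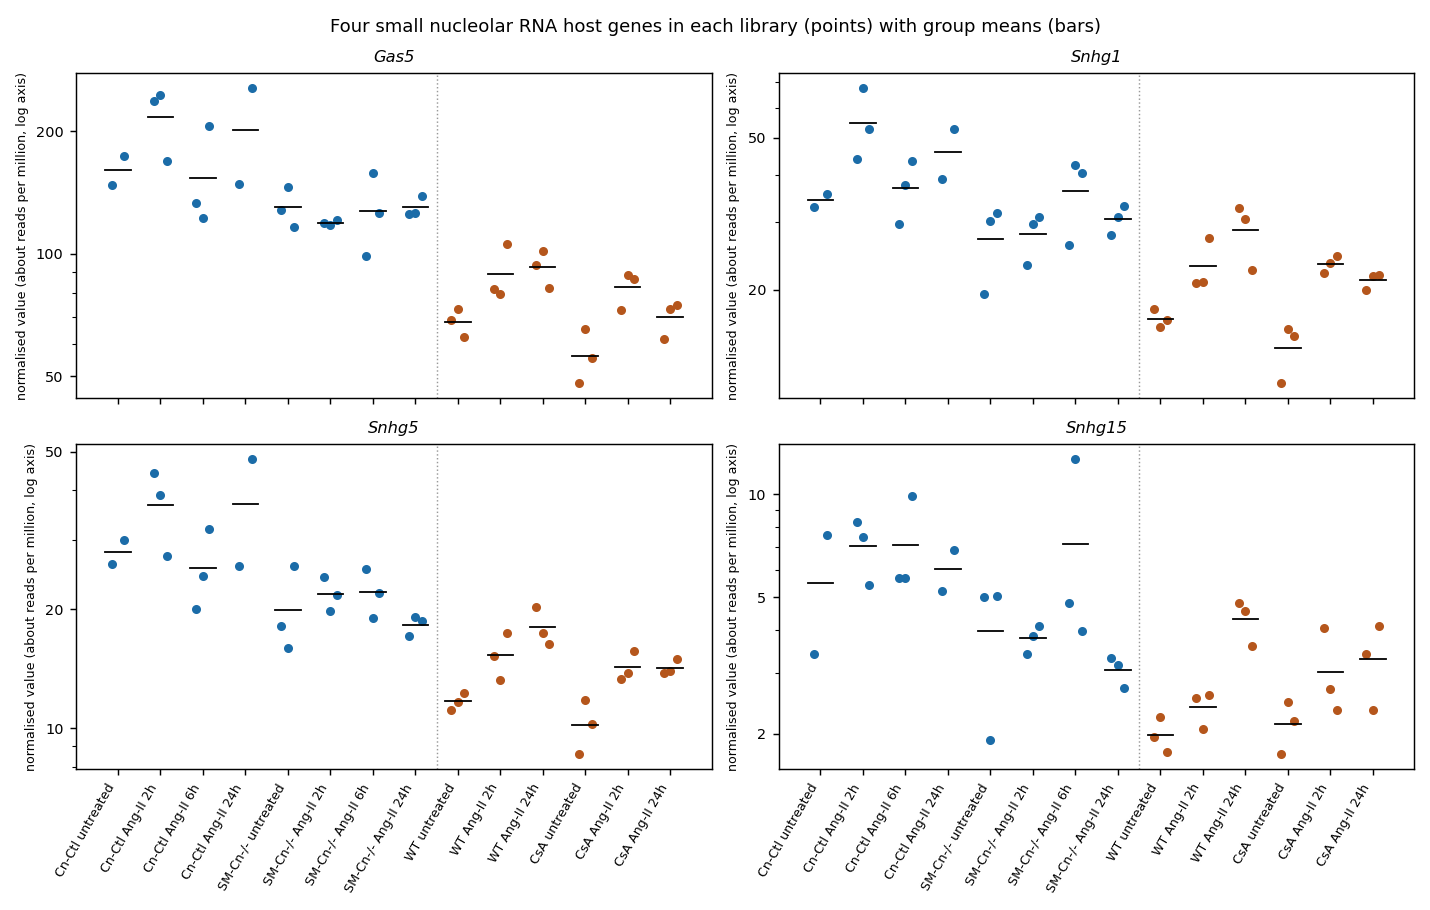
Deposited normalised value (y axis, log scale, close to CPM) of 4 snoRNA host genes in every library (points) with group means (bars), genotype experiment left and cyclosporin experiment right of the dotted line. Snhg5 in WT goes from 11.1, 11.7 and 12.3 untreated to 20.3, 17.4 and 16.3 at 24 h, and Gas5 at 2 h is at 237, 245 and 169 in Cn-Ctl and 119, 118 and 121 in SM-Cn-/-.

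The largest rises of snoRNA hosts at 24 h in WT were those of Snhg6, Snhg15 and Snhg4. Snhg6 was at 4.87, 6.28 and 5.90 untreated and 10.1, 16.1 and 9.60 at 24 h (log2 fold change 0.98 ± 0.24 (SE), adjusted p = 0.00584). Snhg15 was at 1.95, 2.23 and 1.76 and 4.80, 4.56 and 3.61 (0.95, adjusted p = 0.00328), and Snhg4 at 5.03, 4.93 and 4.72 and 9.05, 10.2 and 10.2 (0.94, adjusted p = 0.00111). Snhg5 rose from 11.1, 11.7 and 12.3 to 20.3, 17.4 and 16.3 (0.60, adjusted p = 0.00209). None of these 4 groups of libraries overlapped, and each call held in all 6 fits that left out 1 library. Snhg6 overlaps exons of Mcmdc2 on the other strand, which fell (-0.68, adjusted p = 0.0264). In CsA Snhg5 rose at 2 h (0.47, adjusted p = 0.0182) and at 24 h (0.47, adjusted p = 0.0348), from 8.60, 11.8 and 10.2 untreated to 13.8, 13.96 and 14.96 at 24 h. Snhg5 at 2 h lost its call without replicate 1 of CsA untreated or replicate 3 of CsA Ang-II 2h (log2 fold change 0.36 to 0.41, adjusted p = 0.0634 to 0.0838). At 24 h it lost its call without replicate 1 or 3 of CsA untreated or replicate 1, 2 or 3 of CsA Ang-II 24h (log2 fold change 0.36 to 0.49, adjusted p = 0.0645 to 0.154).

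Further rises in CsA were those of Snhg12 at 2 h (0.52, adjusted p = 0.0204) and Snhg3 at 24 h, the latter from 5.50, 6.21 and 7.95 untreated to 10.6, 11.4 and 12.5 (log2 fold change 0.78 ± 0.21 (SE), adjusted p = 0.0335). Snhg12 lost its call without replicate 1 or 3 of CsA untreated or replicate 1 of CsA Ang-II 2h (log2 fold change 0.46 to 0.49, adjusted p = 0.0582 to 0.0722). Snhg3, which overlaps the coding gene Rcc1 on the same strand and may share reads with it, lost its call without replicate 1 or 2 of CsA untreated or replicate 1, 2 or 3 of CsA Ang-II 24h (log2 fold change 0.67 to 0.84, adjusted p = 0.0636 to 0.13).

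Snhg20, Snhg18 and Snhg14 fell in WT. Snhg20 was at 16.7, 17.4 and 12.4 untreated, 9.06, 7.48 and 7.38 at 2 h, and 9.77, 10.4 and 12.8 at 24 h, with every 2 h library below every untreated one, and fell at 2 h (log2 fold change -0.91 ± 0.16 (SE), adjusted p = 0.000808), a call kept in all 6 fits that left out 1 library. At 24 h the groups overlapped (-0.47, adjusted p = 0.0318), and Snhg20 lost its call without replicate 1 or 2 of WT untreated or replicate 1 or 2 of WT Ang-II 24h (log2 fold change -0.44 to -0.39, adjusted p = 0.099 to 0.13). Snhg18 was at 68.3, 74.3 and 73.6 untreated, 52.8, 46.7 and 61.6 at 2 h, and 54.0, 49.0 and 56.1 at 24 h in WT, without overlap between untreated and treated libraries, and fell by a log2 fold change of -0.43, adjusted p = 0.0319, at 2 h and of -0.44, adjusted p = 0.0186, at 24 h. At 2 h it lost its call without replicate 1, 2 or 3 of WT untreated or replicate 1 or 2 of WT Ang-II 2h (log2 fold change -0.47 to -0.33, adjusted p = 0.0558 to 0.121). At 24 h it lost its call without replicate 2 or 3 of WT untreated or replicate 2 of WT Ang-II 24h (log2 fold change -0.42 to -0.38, adjusted p = 0.0541 to 0.0802). In CsA Snhg18 was at 42.4, 50.2 and 42.1 untreated and 49.6, 53.3 and 48.4 at 2 h. At 24 h it was at 58.0, 55.9 and 38.8 there. Of its 10 Ang-II comparisons 2 were called, both in WT, and 6 had a log2 fold change above 0. Snhg14, a very long RNA whose introns hold the Prader-Willi region snoRNAs and which runs against Ube3a, fell at 24 h in WT from 14.9, 12.8 and 12.2 to 7.46, 6.23 and 8.96 (log2 fold change -0.79 ± 0.26 (SE), adjusted p = 0.0263). Snhg14 there lost its call without replicate 1 or 2 of WT untreated or replicate 1 or 2 of WT Ang-II 24h (log2 fold change -0.81 to -0.67, adjusted p = 0.0575 to 0.11).

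In the genotype experiment Snhg14 was in Cn-Ctl at 17.1 and 12.7 untreated, 10.1, 9.69 and 9.57 at 2 h, 6.61, 8.66 and 11.8 at 6 h, and 6.59 and 4.27 at 24 h, and fell at 24 h (log2 fold change -1.39 ± 0.39 (SE), adjusted p = 0.0428). It lost its call without replicate 2 or 3 of Cn-Ctl untreated or replicate 3 of Cn-Ctl Ang-II 24h (log2 fold change -1.60 to -1.10, adjusted p = 0.118 to 0.341). Snhg14 also lost it under omission of the libraries that stand apart (-1.10, adjusted p = 0.18). In SM-Cn-/- it was at 8.29, 9.82 and 7.52 untreated, 11.4, 16.8 and 10.6 at 2 h, 13.8, 15.5 and 7.46 at 6 h, and 12.5, 9.04 and 10.6 at 24 h, and at 24 h its log2 fold change was 0.31, adjusted p = 0.805. Snhg11, a neuronal host gene, had few reads. In SM-Cn-/- it was at 6.35, 5.23 and 13.6 untreated, 6.30, 3.04 and 4.93 at 2 h, 1.94, 2.65 and 0.173 at 6 h, and 3.92, 4.71 and 4.19 at 24 h. The 0.173 at 6 h stands for 0 reads. Snhg11 fell at 6 h (log2 fold change -2.25 ± 0.55 (SE), adjusted p = 0.0333). Snhg11 there lost its call without replicate 1 or 3 of SM-Cn-/- untreated or replicate 3 of SM-Cn-/- Ang-II 6h (log2 fold change -2.38 to -1.57, adjusted p = 0.0639 to 0.177). Snhg11 also lost it under edgeR on the recovered reads (-2.35, adjusted p = 0.131) and omission of the libraries that stand apart (-1.57, adjusted p = 0.098). In Cn-Ctl at 24 h it was at 0.902 and 0.129, where 0.129 stands for 0 reads. It was higher in SM-Cn-/- than in Cn-Ctl at 24 h (log2 difference 2.34 ± 0.61 (SE), adjusted p = 0.0313). Snhg11 lost its call without replicate 3 of Cn-Ctl Ang-II 24h or replicate 1, 2 or 3 of SM-Cn-/- Ang-II 24h (log2 fold change 1.76 to 2.40, adjusted p = 0.073 to 0.402). Snhg11 also lost it under quantile normalization (2.12, adjusted p = 0.0524), edgeR on the recovered reads (3.07, adjusted p = 0.0959) and omission of the libraries that stand apart (1.76, adjusted p = 0.177).

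Of the other named long noncoding RNAs, few passed the test. Per kilobase of exon, in deposited units, Malat1 was the highest of the RNAs in untreated aortas, at 253 ± 86.6 (SD, n = 2) in Cn-Ctl and 234 ± 24.1 (SD, n = 3) in WT. Neat1, Snhg18 and Mir22hg followed in untreated Cn-Ctl, at 77.1 ± 11.7, 74.0 ± 3.28 and 49.5 ± 3.51 per kb, where Snhg18 lies within the spread of Neat1. In untreated WT they were at 44.2 ± 5.68, 48.5 ± 2.22 and 39.96 ± 1.38 per kb, and both others lie within the spread of Neat1. At 2 h Mir22hg was at 139 ± 22.0 per kb in Cn-Ctl and 84.0 ± 16.3 in WT, above the 77.7 ± 22.4 and 42.1 ± 6.17 of Neat1. The length used was that of all annotated exons, 20771 bases for Neat1, 6983 for Malat1 and 1924 for Mir22hg. Which isoforms the oligo-dT priming captured was not tested. The order of different RNAs per kb therefore holds only in these units and is no order of their abundance. Neat1 (chr19:5824708-5845478) was at 973, 999 and 783 untreated, 862, 753 and 1008 at 2 h, and 883, 806 and 989 at 24 h in WT. Neat1 was at 903, 993 and 1014 untreated, 1432, 1729 and 1056 at 2 h, and 1174, 983 and 1089.5 at 24 h in CsA. In CsA all 3 libraries at 2 h lay above the untreated ones, and in WT they overlapped. Neat1 rose at 2 h in CsA (log2 fold change 0.51 ± 0.16 (SE), adjusted p = 0.0419) and was not called in WT (-0.073, adjusted p = 0.813). In CsA Neat1 lost its call without replicate 1, 2 or 3 of CsA untreated or replicate 1 or 2 of CsA Ang-II 2h (log2 fold change 0.34 to 0.54, adjusted p = 0.078 to 0.2). Neat1 also lost it under quantile normalization (0.074, adjusted p = 0.787) and with the replicate number as a block (0.51, adjusted p = 0.0631). The difference between these responses missed the threshold (interaction 0.58, adjusted p = 0.292).

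In Cn-Ctl, Neat1 was at 1430.3 and 1774 untreated, 2100.2, 1569.8 and 1172 at 2 h, 1484, 1153 and 1776 at 6 h, and 1469 and 2182 at 24 h. In SM-Cn-/- its values were 1512, 1975 and 1998 untreated, 1790.4, 1825 and 1747 at 2 h, 2157, 2577 and 3289 at 6 h, and 1855, 1768 and 2229 at 24 h. At 6 h every SM-Cn-/- library lay above its untreated group and above every Cn-Ctl library, and neither comparison passed the test (0.54, adjusted p = 0.271 against untreated and 0.86, adjusted p = 0.0721 against Cn-Ctl).

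Malat1 (chr19:5795690-5802672) was in Cn-Ctl at 1340.3 and 2196 untreated, 3584, 2538 and 1812 at 2 h, 2348, 1828 and 6364 at 6 h, and 1667 and 8088 at 24 h. Malat1 in SM-Cn-/- was at 1746, 3072 and 2306 untreated, 1215, 1163 and 1946 at 2 h, 1320.4, 3667 and 6061 at 6 h, and 1739.7, 1614 and 3865 at 24 h. The 3 libraries that stand apart hold the 3 highest values, 6061 to 8088. Elsewhere the groups overlapped, and Malat1 was called in 0 comparisons. In WT it was at 1809.8, 1618 and 1475 untreated, 2240.5, 1391 and 2034 at 2 h, and 1620.5, 1437 and 1728 at 24 h. Malat1 in CsA was at 1758, 1552 and 1317 untreated, 1878, 2144 and 1657 at 2 h, and 1516, 2089.8 and 1871 at 24 h, again with overlapping groups.

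Dnm3os (chr1:162217623-162225550), the host of miR-199a and miR-214 within Dnm3 on the opposite strand, was at 37.3, 38.6 and 27.2 untreated, 56.0, 38.7 and 55.3 at 2 h, and 30.3, 28.1 and 42.9 at 24 h in WT. Dnm3os was at 33.7, 24.7 and 23.7 untreated, 50.3, 57.9 and 33.3 at 2 h, and 64.6, 49.4 and 40.2 at 24 h in CsA. At 24 h in CsA all libraries exceeded the untreated ones, whereas at 2 h the lowest treated library overlapped the highest untreated one. Dnm3os rose in CsA at 2 h (log2 fold change 0.76 ± 0.24 (SE), adjusted p = 0.0349) and 24 h (0.89, adjusted p = 0.0313) and was not called in WT (0.53, adjusted p = 0.131 at 2 h). At 2 h in CsA it lost its call without replicate 2 or 3 of CsA untreated or replicate 1 or 2 of CsA Ang-II 2h (log2 fold change 0.59 to 0.69, adjusted p = 0.0785 to 0.157). At 24 h it lost its call without replicate 2 or 3 of CsA untreated or replicate 1 or 2 of CsA Ang-II 24h (log2 fold change 0.71 to 0.90, adjusted p = 0.0814 to 0.13). Dnm3 itself was not called (0.062, adjusted p = 0.92 at 2 h). In Cn-Ctl Dnm3os was at 33.9 and 45.7 untreated, 78.1, 60.3 and 51.8 at 2 h, 34.2, 42.7 and 34.6 at 6 h, and 38.1 and 39.7 at 24 h. Dnm3os in SM-Cn-/- was at 35.3, 43.5 and 30.4 untreated, 43.7, 48.6 and 34.2 at 2 h, 27.3, 40.9 and 66.8 at 6 h, and 41.2, 22.9 and 51.7 at 24 h, with 0 calls.

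Pvt1 (chr15:62037986-62378096), which lies downstream of Myc, was at 3.25, 3.35 and 2.70 untreated, 3.87, 3.43 and 2.70 at 2 h, and 5.92, 6.87 and 4.90 at 24 h in WT. In CsA it was at 2.41, 2.95 and 3.02 untreated, 2.63, 4.12 and 5.64 at 2 h, and 3.46, 2.75 and 2.75 at 24 h. At 24 h the WT libraries lay above both the untreated WT and the treated CsA libraries. Pvt1 rose at 24 h in WT (log2 fold change 0.82 ± 0.22 (SE), adjusted p = 0.00921), a call kept in all 6 fits that left out 1 library, and was lower in CsA than in WT at 24 h (log2 difference -0.87 ± 0.22 (SE), adjusted p = 0.0341). Pvt1 there lost its call without replicate 1 or 2 of WT Ang-II 24h or replicate 2 or 3 of CsA Ang-II 24h (log2 fold change -0.86 to -0.76, adjusted p = 0.0837 to 0.176). Pvt1 also lost it with the replicate number as a block (-0.87, adjusted p = 0.0543). Myc, the neighbouring transcription factor gene 52.6 kb away, rose at 24 h in WT (3.39, adjusted p = 2.53e-06) and was also lower in CsA than in WT at 24 h (-1.21, adjusted p = 0.0458). In the genotype experiment Pvt1 was at 3.57 and 8.12 untreated, 6.88, 2.92 and 4.36 at 2 h, 2.14, 6.63 and 11.8 at 6 h, and 3.82 and 14.4 at 24 h in Cn-Ctl. Pvt1 was at 5.45, 5.23 and 4.15 untreated, 5.72, 6.69 and 3.80 at 2 h, 4.82, 7.67 and 7.11 at 6 h, and 4.40, 5.02 and 4.28 at 24 h in SM-Cn-/-, with 0 calls, and the 2 Cn-Ctl libraries that stand apart were the highest.

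H19 (chr7:142575529-142578143), the maternally expressed partner of Igf2, was low. In WT it was at 2.70, 2.60 and 2.94 untreated, 2.28, 3.43 and 2.18 at 2 h, and 2.64, 4.05 and 3.54 at 24 h. H19 in CsA was at 5.92, 7.68 and 3.68 untreated, 4.52, 3.85 and 3.79 at 2 h, and 2.45, 2.50 and 5.57 at 24 h. Untreated CsA libraries were all above the untreated WT ones. H19 was higher in untreated CsA than in untreated WT (log2 difference 0.89 ± 0.28 (SE), adjusted p = 0.0323). H19 lost its call without replicate 1, 2 or 3 of WT untreated or replicate 1 or 2 of CsA untreated (log2 fold change 0.67 to 0.94, adjusted p = 0.0693 to 0.129). H19 also lost it under quantile normalization (0.61, adjusted p = 0.104). Its Cn-Ctl values were 1.24 and 0.639 untreated, 3.29, 1.02 and 3.90 at 2 h, 4.56, 0.859 and 0.470 at 6 h, and 0.763 and 5.31 at 24 h. In SM-Cn-/- they were 1.87, 1.91 and 0.561 untreated, 0.652, 1.42 and 0.404 at 2 h, 0.688, 3.65 and 7.46 at 6 h, and 1.39, 0.541 and 1.43 at 24 h, and 0 comparisons were called there.

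Tug1 (chr11:3639785-3649673) varied little. In WT it was at 91.6, 90.4 and 84.1 untreated, 77.3, 73.7 and 79.4 at 2 h, and 79.9, 77.2 and 72.4 at 24 h. Tug1 in CsA was at 84.6, 84.0 and 79.1 untreated, 81.6, 71.2 and 74.9 at 2 h, and 74.0, 81.1 and 70.2 at 24 h. It fell slightly at 24 h in WT (log2 fold change -0.21 ± 0.075 (SE), adjusted p = 0.0391), without overlap. Tug1 lost its call without replicate 1 or 2 of WT untreated or replicate 2 or 3 of WT Ang-II 24h (log2 fold change -0.22 to -0.17, adjusted p = 0.0784 to 0.133). In Cn-Ctl it was at 77.0 and 84.6 untreated, 71.1, 55.6 and 85.7 at 2 h, 77.4, 75.6 and 60.03 at 6 h, and 64.5 and 58.6 at 24 h. Tug1 in SM-Cn-/- was at 67.9, 78.2 and 76.2 untreated, 84.1, 85.2 and 66.0 at 2 h, 82.7, 75.2 and 72.0 at 6 h, and 73.6, 75.4 and 69.2 at 24 h, with 0 calls.

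Kcnq1ot1, Epb41l4aos and Miat were called in 0 comparisons of either experiment. Kcnq1ot1 (chr7:143203458-143296549) was at 75.2 and 85.1 untreated, 97.4, 80.3 and 67.9 at 2 h, 65.3, 61.6 and 104 at 6 h, and 50.3 and 107 at 24 h in Cn-Ctl. Kcnq1ot1 was at 42.9, 107 and 87.9 untreated, 56.7, 61.7 and 70.5 at 2 h, 59.1, 93.8 and 152 at 6 h, and 49.9, 51.4 and 67.9 at 24 h in SM-Cn-/-. It was at 37.8, 41.1 and 35.9 untreated, 31.3, 29.9 and 36.5 at 2 h, and 32.8, 29.1 and 39.4 at 24 h in WT. Kcnq1ot1 was at 36.7, 31.7 and 35.7 untreated, 37.6, 42.4 and 33.5 at 2 h, and 40.5, 39.3 and 39.2 at 24 h in CsA. All 3 libraries that stand apart were among the 4 highest of its 22 values in the genotype experiment. Epb41l4aos, which holds a snoRNA, was at 1.38 and 6.66 untreated, 3.09, 3.23 and 0.995 at 2 h, 1.40, 1.95 and 3.60 at 6 h, and 0.763 and 4.01 at 24 h in Cn-Ctl. Epb41l4aos was at 2.31, 2.68 and 3.48 untreated, 0.942, 1.42 and 3.31 at 2 h, 3.32, 4.23 and 4.68 at 6 h, and 4.52, 3.94 and 3.63 at 24 h in SM-Cn-/-. It was at 2.35, 2.15 and 2.21 untreated, 2.39, 1.95 and 2.54 at 2 h, and 2.33, 2.93 and 2.55 at 24 h in WT. Epb41l4aos was at 1.71, 3.28 and 2.83 untreated, 3.45, 4.57 and 2.55 at 2 h, and 3.46, 1.99 and 3.52 at 24 h in CsA. Its groups overlapped except in SM-Cn-/- at 24 h, above untreated, and in CsA at 2 h, above WT at 2 h, and neither passed the test (0.46, adjusted p = 0.845 and 0.50, adjusted p = 0.286). Miat was at 0.364 and 0.0913 untreated, 0.0997, 0.394 and 1.61 at 2 h, 0.652, 1.01 and 0.157 at 6 h, and 0.0694 and 0.129 at 24 h in Cn-Ctl. Miat was at 0.373, 0.128 and 0.112 untreated, 0.652, 0.743 and 0.0808 at 2 h, 0.563, 1.36 and 0.173 at 6 h, and 0.422, 2.09 and 0.0460 at 24 h in SM-Cn-/-. It was at 0.966, 0.918 and 0.264 untreated, 0.590, 1.73 and 0.180 at 2 h, and 0.436, 0.254 and 1.09 at 24 h in WT. Miat was at 1.39, 0.469 and 2.29 untreated, 0.945, 0.779 and 18.2 at 2 h, and 0.929, 0.833 and 0.166 at 24 h in CsA. For Miat in Cn-Ctl 0.0913, 0.0997, 0.157, 0.0694 and 0.129 stand for 0 reads, and in SM-Cn-/- 0.128, 0.112, 0.0808, 0.173 and 0.0460 do.

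A single library held the highest values of both Miat and Snhg11 in the cyclosporin experiment. CsA 2 h replicate 3 had 18.2 for Miat and 115.9 for Snhg11, against at most 2.29 and 23.2 in the other 17 libraries. Both RNAs are known mainly from nerve cells. The sum of 5 nerve markers, all of Schwann cells and myelin, was 137 in that library and 42.2 to 153 over the 18 libraries, and its part in these values was not tested. Neither RNA was called at 2 h in CsA (0.92, adjusted p = 0.439 for Miat and 0.28, adjusted p = 0.876 for Snhg11). The same library also held the highest values of Meg3 (452), Rian (190.4) and Snhg14 (23.2). The other 17 libraries had at most 359, 180.3 and 14.9 of these. The calls of Meg3 and Rian at 2 h in CsA held in all 6 fits that left out 1 library.

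Of the 28 opposite-strand RNAs listed in the cyclosporin experiment, 10 (35.7%) were called at 24 h in WT, near the 33.0% of all genes. These were 9 lower and 1 higher, and the median log2 fold change of the 28 was -0.32. At 2 h 4 were called (14.3%, all genes 20.3%), all lower (median -0.30). The marker sums of macrophages, fat and endothelium given above for WT at 24 h were higher in the same libraries. In CsA 2 were called at 2 h (7.14%, all genes 18.6%), 1 in each direction, and 0 at 24 h (all genes 7.90%, with 4 at an unadjusted p under 0.05 by limma and 0 called by edgeR), with medians of -0.11 and -0.20. The median over all genes was between -0.024 and 0.018 in these comparisons. In Cn-Ctl 2 of 50 were called at 2 h (all genes 5.07%) and 2 at 24 h (all genes 4.66%), all lower, and 0 at 6 h (4 at an unadjusted p under 0.05). In SM-Cn-/- 0 were called at any time, with 3, 4 and 2 at an unadjusted p under 0.05 at 2, 6 and 24 h. For these 4 counts of 0, edgeR called 0 as well. By annotation 32 of the 52 overlap exons of a protein-coding gene on the other strand, and as the counting is not stated to use strand, reads of the 2 genes cannot be told apart there.

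Dnm3os, called higher in CsA, was classed with the other named long noncoding RNAs and is not counted here. Among the RNAs classed as opposite-strand, Map2k3os (chr11:60920917-60931867) was the only one called higher in an Ang-II comparison, although 7 of the 28 lay above 0 at 24 h in WT, called or not. It starts 166 bases from Map2k3, a kinase that activates p38, on the opposite strand and was at 3.02, 3.28 and 2.74 untreated, 5.26, 3.48 and 6.30 at 2 h, and 8.95, 6.73 and 7.32 at 24 h in WT. Map2k3os was at 2.37, 3.48 and 2.44 untreated, 5.24, 6.44 and 4.80 at 2 h, and 5.41, 5.88 and 3.19 at 24 h in CsA. All libraries at 24 h in WT and at 2 h in CsA lay above their untreated groups. It rose at 24 h in WT (log2 fold change 1.21 ± 0.23 (SE), adjusted p = 0.00087), a call kept in all 6 fits that left out 1 library, and at 2 h in CsA (0.88, adjusted p = 0.0158). Map2k3os there lost its call without replicate 1 or 3 of CsA untreated or replicate 2 of CsA Ang-II 2h (log2 fold change 0.77 to 0.81, adjusted p = 0.0572 to 0.0761). Map2k3 rose in the same 2 comparisons (0.91, adjusted p = 0.000203 and 0.81, adjusted p = 0.00162), and also at 2 h in Cn-Ctl (1.31, adjusted p = 0.00316), where Map2k3os was not called (0.65, adjusted p = 0.604).

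Other opposite-strand RNAs fell while their partner did not. Abhd11os, annotated as a transcribed pseudogene against exons of Abhd11, a mitochondrial hydrolase, went from 2.70, 1.41 and 2.70 in untreated WT to 0.744, 0.594 and 0.766 at 24 h (log2 fold change -1.17 ± 0.26 (SE), adjusted p = 0.00277), while Abhd11 rose (0.58, adjusted p = 0.000946). Cep83os, whose start is 78 bases from that of the centriole gene Cep83, fell (-0.87, adjusted p = 0.000641) and Cep83 rose (0.46, adjusted p = 0.0168). Rab10os, against the vesicle transport gene Rab10, fell (-0.46, adjusted p = 0.00535) and Rab10 rose (0.41, adjusted p = 0.00358). In each of these pairs the untreated and 24 h libraries of the opposite-strand RNA did not overlap, and the call held in all 6 fits that left out 1 library. Hoxb5os fell from 0.966, 1.52 and 2.13 to 0.179, 0.322 and 0.481 (-1.28, adjusted p = 0.0056), with the call kept in all 6 such fits, while Hoxb6, the homeobox gene it overlaps without sharing exons, was not called (-0.29, adjusted p = 0.337). Over the 23 pairs with both genes listed, 7 opposite-strand RNAs were called lower at 24 h in WT, and of their partners 3 were called higher, 0 lower and 4 not called. In the same comparison 2562 of all 15399 genes were called higher, and 33.0% in either direction. The log2 fold changes of the 23 pairs had a Pearson r of 0.321 and a Spearman rho of 0.167 across genes, which share libraries and are not independent replicates.

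**Figure D4:**
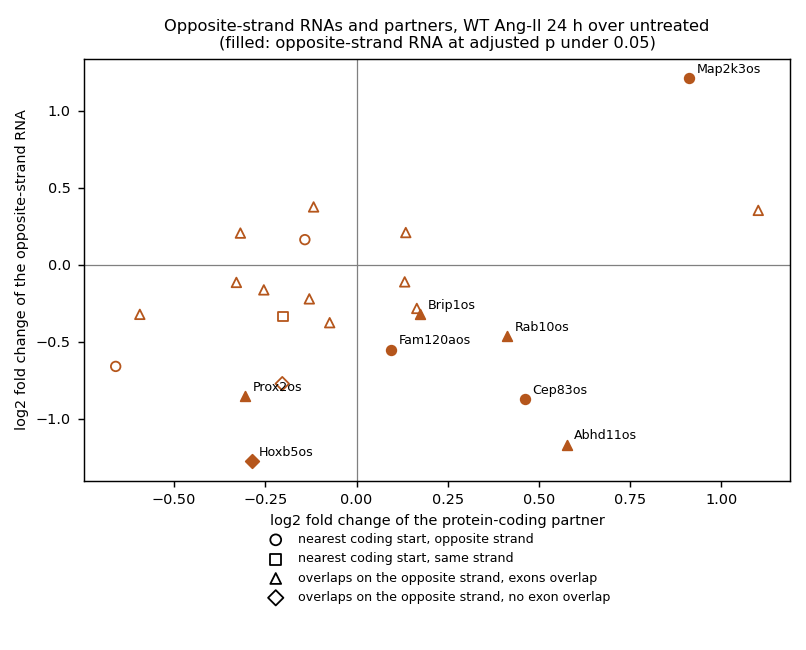
Log2 fold change of each opposite-strand RNA (y axis) against that of its overlapping or nearest protein-coding gene (x axis) at 24 h of Ang-II in WT, for 23 pairs, filled where the opposite-strand RNA had an adjusted p under 0.05 and shaped by the relation of the pair. Map2k3os sits in the upper right with its partner at 0.91, and Abhd11os, Cep83os and Rab10os sit in the lower right.

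Atcayos, which runs against the neuronal gene Atcay, fell at 24 h in WT and in Cn-Ctl. In WT it was at 11.9, 12.4 and 10.6 untreated, 5.62, 9.68 and 8.45 at 2 h, and 7.77, 4.50 and 5.47 at 24 h (log2 fold change -0.95 ± 0.27 (SE), adjusted p = 0.0141 at 24 h), and in Cn-Ctl at 22.2 and 22.0 untreated, 10.3, 12.1 and 6.51 at 2 h, 15.2, 11.5 and 21.2 at 6 h, and 7.70 and 7.90 at 24 h (-1.45, adjusted p = 0.0337 at 24 h). In SM-Cn-/- it was at 16.6, 26.7 and 34.5 untreated, 17.2, 16.01 and 22.9 at 2 h, 20.2, 36.5 and 42.9 at 6 h, and 23.8, 37.5 and 28.3 at 24 h. At 24 h all SM-Cn-/- libraries were above both of Cn-Ctl. It was higher in SM-Cn-/- at 24 h (log2 difference 1.85 ± 0.36 (SE), adjusted p = 0.00362). In WT it lost its call without replicate 2 of WT Ang-II 24h (log2 fold change -0.78, adjusted p = 0.0739). In Cn-Ctl it lost its call whichever 1 library was left out (log2 fold change -1.46 to -1.43, adjusted p = 0.084 to 0.18). Atcayos also lost it under omission of the libraries that stand apart (-1.46, adjusted p = 0.104). Between the genotypes it lost its call without replicate 3 of Cn-Ctl Ang-II 24h (log2 fold change 1.86, adjusted p = 0.0524).

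Zeb2os and Hoxb3os were the opposite-strand RNAs called in Cn-Ctl at 2 h. Zeb2os, against exons of the transcription factor gene Zeb2, was at 3.42 and 8.49 untreated, 0.897, 0.0788 and 1.61 at 2 h, 1.956, 0.546 and 2.04 at 6 h, and 1.46 and 0.129 at 24 h, where 0.0788 and 0.129 stand for 0 reads, and all treated libraries were below both untreated ones. It fell at 2 h (log2 fold change -2.31 ± 0.64 (SE), adjusted p = 0.0358) and 24 h (-2.42, adjusted p = 0.0493). At 2 h it lost its call without replicate 2 or 3 of Cn-Ctl untreated or replicate 1 or 2 of Cn-Ctl Ang-II 2h (log2 fold change -2.91 to -1.72, adjusted p = 0.0614 to 0.443). Zeb2os also lost it under quantile normalization (-2.28, adjusted p = 0.0526) and edgeR on the recovered reads (-2.88, adjusted p = 0.0896). At 24 h it lost its call without replicate 2 or 3 of Cn-Ctl untreated or replicate 3 of Cn-Ctl Ang-II 24h (log2 fold change -3.02 to -1.60, adjusted p = 0.09 to 0.462). Zeb2os also lost it under quantile normalization (-2.35, adjusted p = 0.062), edgeR on the recovered reads (-2.88, adjusted p = 0.154) and omission of the libraries that stand apart (-1.60, adjusted p = 0.387). Hoxb3os was at 9.10 and 6.66 untreated and 2.69, 3.39 and 2.07 at 2 h (log2 fold change -1.39 ± 0.40 (SE), adjusted p = 0.0429), and its partner Hoxb3, a homeobox gene, also fell (-1.27, adjusted p = 0.00788). It lost its call whichever 1 library was left out (log2 fold change -1.60 to -1.176, adjusted p = 0.054 to 0.328). Hoxb3os also lost it under a pseudocount of 2 (-1.07, adjusted p = 0.0616), quantile normalization (-1.27, adjusted p = 0.0804) and the replicate number as a block (-1.33, adjusted p = 0.074). At 2 h SM-Cn-/- had 7.90, 8.31 and 6.22 (log2 difference 1.32 ± 0.35 (SE), adjusted p = 0.0423 against Cn-Ctl). Hoxb3os there lost its call whichever 1 library was left out (log2 fold change 1.17 to 1.47, adjusted p = 0.0541 to 0.195). Hoxb3os also lost it under a pseudocount of 2 (1.01, adjusted p = 0.0672) and quantile normalization (1.28, adjusted p = 0.0691). In CsA it fell from 6.52, 9.84 and 8.91 to 4.98, 5.55 and 5.44 at 2 h (-0.60, adjusted p = 0.0364). Hoxb3os lost its call without replicate 2 or 3 of CsA untreated or replicate 1, 2 or 3 of CsA Ang-II 2h (log2 fold change -0.63 to -0.48, adjusted p = 0.0631 to 0.129). Hoxb3os also lost it under quantile normalization (-0.44, adjusted p = 0.0866).

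The opposite-strand RNAs that fell at 2 h in WT were N4bp2os, Ino80dos, Fbxl12os and Tmem147os. N4bp2os went from 5.73, 4.33 and 3.39 to 2.28, 2.17 and 1.52 (log2 fold change -0.99 ± 0.23 (SE), adjusted p = 0.00554), with no overlap and the call kept in all 6 fits that left out 1 library. Ino80dos went from 1.99, 2.49 and 2.25 to 1.00, 1.179 and 0.951 (-0.83, adjusted p = 0.0165). Ino80dos lost its call without replicate 2 of WT untreated or replicate 1 or 3 of WT Ang-II 2h (log2 fold change -0.81 to -0.76, adjusted p = 0.0533 to 0.0663). Fbxl12os went from 0.926, 1.48 and 1.32 to 0.693, 0.356 and 0.591 (-0.73, adjusted p = 0.0496). Fbxl12os lost its call whichever 1 library was left out (log2 fold change -0.87 to -0.60, adjusted p = 0.052 to 0.168). Fbxl12os also lost it under a pseudocount of 2 (-0.35, adjusted p = 0.0578) and with the replicate number as a block (-0.73, adjusted p = 0.0605). Tmem147os fell at 2 h (-0.49, adjusted p = 0.0336) and 24 h (-0.48, adjusted p = 0.024). At 2 h it lost its call without replicate 1, 2 or 3 of WT untreated or replicate 1 of WT Ang-II 2h (log2 fold change -0.52 to -0.37, adjusted p = 0.065 to 0.157). Tmem147os also lost it under quantile normalization (-0.46, adjusted p = 0.057) and with the replicate number as a block (-0.49, adjusted p = 0.0521). At 24 h it lost its call without replicate 1 of WT untreated or replicate 3 of WT Ang-II 24h (log2 fold change -0.43 to -0.36, adjusted p = 0.0852 to 0.107). Also lower at 24 h were Prox2os (-0.85, adjusted p = 0.0468), Fam120aos (-0.55, adjusted p = 0.0366) and Brip1os (-0.32, adjusted p = 0.0193). Prox2os lost its call whichever 1 library was left out (log2 fold change -0.92 to -0.72, adjusted p = 0.0668 to 0.142). Prox2os also lost it under edgeR on the recovered reads (-1.32, adjusted p = 0.0504) and with the replicate number as a block (-0.85, adjusted p = 0.0556). Fam120aos lost its call without replicate 1, 2 or 3 of WT untreated or replicate 1 or 2 of WT Ang-II 24h (log2 fold change -0.60 to -0.46, adjusted p = 0.0535 to 0.122). Brip1os lost its call without replicate 1 of WT untreated or replicate 1 or 2 of WT Ang-II 24h (log2 fold change -0.32 to -0.24, adjusted p = 0.0531 to 0.0952).

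CsA and WT were also compared with each other. In untreated aortas 4 of 57 RNAs were called (all genes 22.6%): Ctcflos and H19 were higher and Snhg18 and Mir22hg lower in CsA. Ctcflos, against exons of the testis gene Ctcfl, was at 4.20, 4.03 and 3.10 in WT and 14.2, 9.96 and 12.1 in CsA (log2 difference 1.55 ± 0.38 (SE), adjusted p = 0.0087), and Snhg18 at 68.3, 74.3 and 73.6 and 42.4, 50.2 and 42.1 (log2 difference -0.68 ± 0.13 (SE), adjusted p = 0.00303). Both pairs of groups were without overlap, and both calls held in all 6 fits that left out 1 library. Marker sums differed in the same libraries: 6 adipose markers summed to 357 to 686 in untreated WT and 2381 to 4267 in untreated CsA, 6 endothelial markers to 368 to 625 and 969 to 1113, and 6 smooth muscle markers to 24882 to 34070 and 15723 to 17748. The sums of 6 macrophage markers were 92.6 to 135 in untreated WT and 243 to 316 in untreated CsA. The part of these markers in the result was not tested.

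At 2 h of Ang-II 0 of 57 RNAs were called between CsA and WT (all genes 1.35%), with 11 at an unadjusted p under 0.05 by limma and 0 called by edgeR. Rian was at a log2 difference of -0.15, adjusted p = 0.751, Mirg of -0.27, adjusted p = 0.591 and Mir22hg of -0.23, adjusted p = 0.547. The test of the difference between the responses of CsA and WT at 2 h called 0 (all genes 0.149%), with 9 at an unadjusted p under 0.05 and 0 by edgeR. For Rian this difference was log2 fold change -0.11 ± 0.31 (SE), adjusted p = 0.906, for Mirg -0.34, adjusted p = 0.693 and for Mir22hg 0.40, adjusted p = 0.518. A p that misses the threshold does not show that the responses were alike. Marker sums also differed between WT and CsA at 2 h, where those of 6 adipose markers were 528 to 865 and 1032 to 3068. The sums of 6 endothelial markers were 561 to 617 and 795 to 973, and those of 6 smooth muscle markers 27593 to 34725 and 19489 to 25208. At 24 h 3 were called (all genes 4.97%): Pvt1 and Snhg4 were lower and Tmem147os higher in CsA. The adipose sums at 24 h were 812 to 882 in WT and 1236 to 3904 in CsA, while the smooth muscle sums overlapped (23277 to 32479 and 18421 to 26867). The part of these markers in the results at 2 h and 24 h was not tested. Snhg4 was at 9.05, 10.2 and 10.2 in WT and 5.22, 6.19 and 5.67 in CsA (log2 difference -0.74 ± 0.19 (SE), adjusted p = 0.0323). Snhg4 lost its call whichever 1 library was left out (log2 fold change -0.80 to -0.68, adjusted p = 0.0565 to 0.149). Snhg4 also lost it under quantile normalization (-0.77, adjusted p = 0.0638) and with the replicate number as a block (-0.74, adjusted p = 0.0517). Tmem147os was at 3.05, 2.73 and 2.12 and 4.27, 4.42 and 4.24 (log2 difference 0.63 ± 0.15 (SE), adjusted p = 0.0298). Tmem147os lost its call without replicate 2 or 3 of WT Ang-II 24h or replicate 1, 2 or 3 of CsA Ang-II 24h (log2 fold change 0.50 to 0.66, adjusted p = 0.0596 to 0.106). Tmem147os also lost it under quantile normalization (0.54, adjusted p = 0.0597) and with the replicate number as a block (0.63, adjusted p = 0.0516).

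Genes known to work with these RNAs were counted from lists. Of 8 snoRNA-protein (snoRNP) core genes, which package the snoRNAs that the hosts carry, 6 rose and 0 fell at 24 h in WT (all genes called 33.0%), with a median log2 fold change of 0.81 against -0.012 for all genes, led by Nhp2 (1.40, adjusted p = 2.09e-05), Nop58 (1.14, adjusted p = 2.77e-05) and Fbl (1.04, adjusted p = 2.03e-05). The CsA aortas had less of 5 of these 8 at 24 h than the WT aortas (all genes called 4.97%), led by Nop58 (-0.78, adjusted p = 0.00844), Gar1 (-0.74, adjusted p = 0.0205) and Fbl (-0.70, adjusted p = 0.00778), with a median of -0.53. Adipose marker sums differed between the same libraries, as given above, and their part was not tested. In Cn-Ctl 1 of the 8 rose at 2 h (all genes 5.07%), Nop58 (0.93, adjusted p = 0.0494), and 1 at 24 h (all genes 4.66%), Fbl (1.31, adjusted p = 0.0125). Among 13 paraspeckle proteins, the partners of Neat1, 3 rose and 0 fell at 2 h in WT, Pspc1 (0.69, adjusted p = 0.000224), Sfpq (0.67, adjusted p = 0.000735) and Hnrnpk (0.30, adjusted p = 0.0235), a share near the 20.3% of all genes called, and 4 rose in CsA (all genes 18.6%). Sfpq also rose at 2 h in Cn-Ctl (0.89, adjusted p = 0.00342) and was lower in SM-Cn-/- than in Cn-Ctl at 2 h (-0.89, adjusted p = 0.00233), 6 h (-0.77, adjusted p = 0.0142) and 24 h (-0.66, adjusted p = 0.0428).

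Of 12 genes of microRNA processing and action, 7 fell and 1 rose at 24 h in WT (all genes called 33.0%), at a median of -0.31 against -0.012 for all genes. The largest changes were those of Ago4 (-0.67, adjusted p = 0.00803), Ago1 (-0.53, adjusted p = 0.000763) and Tnrc6c (-0.49, adjusted p = 0.00156), all parts of the silencing complex, and Dicer1 (-0.34, adjusted p = 0.00315) and Drosha (-0.33, adjusted p = 0.00306), which cut the hairpins, fell too, whereas Dgcr8, the partner of Drosha, rose (0.26, adjusted p = 0.0254). In WT 3 fell and 0 rose at 2 h (all genes 20.3%), and in CsA 1 rose and 1 fell at each time (all genes 18.6% at 2 h and 7.90% at 24 h). Of 10 genes of nonsense-mediated decay, Smg1, its kinase, rose at 2 h in Cn-Ctl (0.82, adjusted p = 0.00611), WT (0.62, adjusted p = 0.00248) and CsA (0.51, adjusted p = 0.0113). In WT 2 of the 10 rose and 1 fell at 2 h (all genes 20.3%), and at 24 h 2 rose and 0 fell (all genes 33.0%). Of 8 coding neighbours of the imprinted RNAs, 5 were listed in the cyclosporin experiment, and 3 were higher in untreated CsA than in untreated WT (all genes called 22.6%): Kcnq1 (1.36, adjusted p = 0.0128), Igf2 (0.75, adjusted p = 0.0227) and Cdkn1c (0.28, adjusted p = 0.0265).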

How the data were processed

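Oligo-dT primed RNA-seq libraries of pooled mouse aortas were sequenced on an Illumina Genome Analyzer IIx. The submitters' processing notes name GRCm38, Bowtie 0.12.7 and RSEM 1.16; whether counting used strand is not given in the sources used here. The deposited values (unit: signal) are gene counts that the authors divided by a scaled library size after adding 0.5 reads, in 1 table per experiment. All values gave back whole reads within a tolerance of 0.01, and depth is the sum of these reads. Counting error alone limits values of a few reads.

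Each table was fitted with limma 3.58.1 (R 4.3.3, lmFit and eBayes with trend) on log2(value + 0.5), over all 17402 and 15399 genes, with Benjamini-Hochberg adjustment over all of them, and called at adjusted p under 0.05. A fold change on this scale understates that of low genes. Columns were read with pandas 2.3.3. Alternatives were a pseudocount of 2, a mean of at least 5, quantile normalization, edgeR 4.0.16 quasi-likelihood on the recovered reads, the replicate number as a block and leaving out each library. Leaving out 3 libraries that stand apart was added after seeing the data. On simulated counts 57 of 67 genes changed 2-fold were recovered in the WT 2 h comparison and 7 of 67 in the Cn-Ctl 2 h comparison. The changed genes all had a mean of at least 5. Of the RNAs here, 50 of 82 in the genotype experiment and 27 of 57 in the cyclosporin experiment averaged less, and recovery was not simulated for them.

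Values per library were given for 13 listed RNAs and, per comparison, for up to 8 called RNAs by size of change, with further called ones summarised. Opposite-strand RNAs were given with their partner by GENCODE M21. The members and lists were chosen with earlier results of these data known. Some sequences and positions are from RefSeq (GRCm38.p6).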

Additional observations from a re-analysis of the deposited data

Results flagged for a closer look

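The response of Rian to 2 h of Ang-II differed between the genotypes by the interaction test, SM-Cn-/- minus Cn-Ctl being -1.46 on the log2 scale (limma, adjusted p = 0.0294). At 24 h the response of Snhg14 was 1.70 log2 units higher in SM-Cn-/- than in Cn-Ctl, as both Cn-Ctl libraries lay below their untreated mean and all 3 SM-Cn-/- libraries above theirs, and this difference was not tested. No group held more than 3 libraries, so none was examined for a single outlying library by its gap to the others.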

How the results depend on the processing

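Of the 92 calls of an RNA in a comparison, 38 kept their call under every alternative run and 54 lost it under at least 1, and 0 of the 992 alternative values changed direction. Calls lost were 203 of 536 when 1 library was left out, 18 of 92 under quantile normalization, 11 of 92 with the replicate block, 5 of 92 by edgeR, 3 of 92 with a pseudocount of 2, 0 of 72 with a mean of at least 5, and 9 of 16 without the 3 libraries that stand apart. The cause was not tested.

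The number of RNAs called moved by over 1.5 times in these cases. Under quantile normalization it was 3 (5 in the report) in Cn-Ctl at 2 h, 2 (7) between genotypes at 2 h, 2 (1) at 6 h, 0 (1) for the genotype interaction, and for CsA against WT 1 (0) at 2 h and 1 (3) at 24 h. With a mean of at least 5 it was 2 (1) between genotypes at 6 h, and 1 (0) at 2 h and 1 (3) at 24 h for CsA against WT. Without the libraries that stand apart it was 2 (4) in Cn-Ctl at 6 h, 0 (4) at 24 h, which leaves 1 library assumed to vary like the other groups, and 2 (4) between genotypes at 24 h.

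Leaving out 1 library at a time gave 2 to 5 calls in Cn-Ctl at 2 h, 2 to 4 at 6 h and 0 to 4 at 24 h, 0 to 1 in SM-Cn-/- at 2 h, 2 to 4 at 6 h and 0 to 0 at 24 h, and between genotypes 0 to 0 untreated, 3 to 6 at 2 h, 1 to 3 at 6 h and 1 to 10 at 24 h, with 0 to 2 for the interaction. The lowest value at 24 h came without Cn-Ctl replicate 3 and the highest without Cn-Ctl replicate 2. It gave 6 to 15 in WT at 2 h and 13 to 22 at 24 h, 8 to 12 in CsA at 2 h and 1 to 6 at 24 h, and for CsA against WT 2 to 3 untreated, 0 to 2 at 2 h and 0 to 2 at 24 h, with 0 to 0 for the interaction.

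On average, libraries with the same replicate number did not deviate together (mean r of 0.038 over 71 pairs and -0.014 over 45 pairs, against -0.019 and 0.0079 for other numbers). The libraries that stand apart in the genotype experiment were all replicate 3. A mean over all pairs cannot show whether libraries of that number share a batch. With the replicate block 0 (3) RNAs were called between CsA and WT at 24 h. The shallow genotype libraries limit the RNAs of a few reads most.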
